A study of Mus musculus with 9 samples.

Results

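Glycolysis and hypoxia response genes, the subject here, are 36 genes taken by symbol from an expression table of 53607 rows in mouse skeletal stem cells. Of these, 22 serve glycolysis (3 transporters of glucose or lactate, 16 enzymes of the glycolytic steps and 3 enzymes that switch the pathway), and 14 are other genes known to be induced by the hypoxia-inducible factor HIF. All 36 symbols were found, and all 36 passed the filter of 1 TPM or more in 3 or more of the 9 libraries, which left 14501 genes for testing. TPM (transcripts per 1e+06) gives a gene's share of a library's transcripts after correction for their length. The cells were mSSC, progenitors of bone and cartilage, sorted from the callus of a broken femur of C57BL/6J mice 10 days after injury. The 3 groups were mice aged 2 months, 12 months and 24 months, with 3 libraries each. Every group shared the strain, the fracture and the sort, and the labels name no treatment, no transgene and no sex. The sort kept cells positive for ITGAV and negative for THY1, TIE2, CD105, 6C3, CD45 and TER119, with 500 to 1000 cells in each sample. It is not stated whether the 3 samples of an age came from separate animals, so p-values reflect only how far these samples vary, and some of that variation may be technical.

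Glycolysis turns glucose into pyruvate in the cytosol, and lactate dehydrogenase then reduces pyruvate to lactate, so that ATP is made without oxygen. When oxygen is short, the HIF alpha subunit escapes hydroxylation, pairs with ARNT and binds a short core sequence in DNA, which switches on glucose transporters, nearly every glycolytic enzyme and genes that remodel mitochondria, buffer acid or signal to vessels. The soft callus of a healing fracture is poor in vessels, and cartilage cells are known to rely on HIF and on glycolysis there.

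Itgav, the gene of the positive sort marker, was read at 25.2 to 50.1 TPM across the 9 libraries, and Ptprc (CD45) and Tek (TIE2) stayed below the filter. Thy1, Enpep (6C3) and Eng (CD105) peaked at 4.27, 1.63 and 4.08 TPM and were called in no comparison. Col2a1, the main collagen of cartilage, lay between 13906 and 41553 TPM, and Sox9, which drives the cartilage fate, between 214 and 513 TPM. Libraries are numbered 1 to 3 within an age in file order. Library 1 of 24 months stood apart from the rest: its mean correlation with the other libraries was 0.932, against 0.953 to 0.962 for the others, and 33313 of its rows were at 0, against 29284 to 31082. Library 3 of 24 months had the highest such correlation of the 9 libraries (0.962), and differed from the others of its age for the genes described here. It held the highest value of its age for 31 of the 36 genes (86.1%), against 37.5% of all genes kept. In the other ages, library 2 of 2 months was the highest of its age for 27 of the 36 (33.5% of all genes kept), library 1 of 12 months the highest for 29 (25.6%) and library 2 of 12 months the lowest for 26 (45%).

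HIF binds DNA at a core written ACGTG or GCGTG, and the promoters of 5 of the genes are printed here to show where those letters stand. Mgarp and Ankrd37 were the 2 genes that passed the test between ages, Pgk1 and Ldha are enzymes of the later steps of glycolysis, and Hk2 stood at its lowest at 12 months. Each window runs 5′ to 3′ on the gene's own strand from 250 bases before to 50 bases after a RefSeq start (build GRCm38.p6), and capitals mark ACGTG or GCGTG on either strand. The windows lie at chr3:51396498-51396797 on the minus strand for Mgarp, chr8:45999801-46000100 on the minus strand for Ankrd37, chrX:106186850-106187149 on the plus strand for Pgk1, chr7:46845554-46845853 on the plus strand for Ldha and chr6:82774405-82774704 on the minus strand for Hk2.
Mgarp: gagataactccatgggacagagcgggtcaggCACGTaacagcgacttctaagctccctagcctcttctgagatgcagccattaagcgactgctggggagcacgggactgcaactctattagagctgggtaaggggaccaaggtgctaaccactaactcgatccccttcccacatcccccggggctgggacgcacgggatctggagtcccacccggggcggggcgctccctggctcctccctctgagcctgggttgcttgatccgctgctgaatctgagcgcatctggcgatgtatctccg
Ankrd37: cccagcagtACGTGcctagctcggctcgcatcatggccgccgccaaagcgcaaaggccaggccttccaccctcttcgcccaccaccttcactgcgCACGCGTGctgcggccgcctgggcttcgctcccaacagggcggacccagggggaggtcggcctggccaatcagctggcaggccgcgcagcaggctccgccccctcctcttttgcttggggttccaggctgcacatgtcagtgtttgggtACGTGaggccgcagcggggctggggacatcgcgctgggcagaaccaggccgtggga
Pgk1: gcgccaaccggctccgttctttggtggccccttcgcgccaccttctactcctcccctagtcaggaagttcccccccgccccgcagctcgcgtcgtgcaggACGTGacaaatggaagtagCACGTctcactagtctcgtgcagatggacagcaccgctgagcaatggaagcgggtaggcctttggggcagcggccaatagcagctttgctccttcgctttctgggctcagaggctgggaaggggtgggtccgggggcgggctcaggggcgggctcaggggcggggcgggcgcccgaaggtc
Ldha: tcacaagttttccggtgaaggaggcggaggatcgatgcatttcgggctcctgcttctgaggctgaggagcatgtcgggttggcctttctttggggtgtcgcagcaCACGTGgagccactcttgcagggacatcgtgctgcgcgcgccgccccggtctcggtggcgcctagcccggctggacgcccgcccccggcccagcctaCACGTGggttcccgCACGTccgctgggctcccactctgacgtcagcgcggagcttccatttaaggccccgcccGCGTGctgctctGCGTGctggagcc
Hk2: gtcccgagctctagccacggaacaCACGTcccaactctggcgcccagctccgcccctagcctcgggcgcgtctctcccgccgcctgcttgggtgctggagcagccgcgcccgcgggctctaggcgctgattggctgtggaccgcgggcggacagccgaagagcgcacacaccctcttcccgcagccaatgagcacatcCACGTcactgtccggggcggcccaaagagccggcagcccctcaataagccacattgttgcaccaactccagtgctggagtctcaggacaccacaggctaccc

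Positions are counted from the start to the C of the central CG. The Mgarp window held a single ACGTG, 217 bases before the start. Ankrd37 held ACGTG at 240 and 5 bases before the start, and a pair of overlapping GCGTG at 153 and 151 bases before it. Pgk1 held ACGTG at 149 and 129 bases before the start. The printed Ldha window held ACGTG at 143, 46 and 32 bases before the start, those at 143 and 46 as the palindrome CACGTG, and GCGTG at 27 and 39 bases after it. A further Ldha window, at chr7:46846832-46847131 on the plus strand, held no ACGTG and 2 GCGTG. Hk2 held ACGTG at 224 and 50 bases before the start. RefSeq windows were matched for 33 of the 36 genes, as 53 windows, and Slc2a3, Bnip3l and Ndrg1 had no entry. ACGTG on either strand stood in 49.1% of the 53 windows, against 25.3% of the 12776 windows of genes kept and 19.6% of the 32851 windows of all genes in the table that matched. For GCGTG the shares were 54.7%, against 50% and 32.4%. The median GC content was 63% in the 53 windows, against 60.7% and 52.7%, and its part in the motif shares was not tested. Both the glycolytic genes and the other HIF-induced genes held ACGTG, in 47.1% of 34 windows and 52.6% of 19. Some windows of Ak4, Eno1 and Aldoa overlap, so a site can count more than once. By gene, ACGTG stood in 66.7% of the 33 genes, against 29.4% of genes kept, and GCGTG in 63.6%, against 56.1%. The genes were listed as glycolytic or HIF-induced, so a high share of the HIF core was likely beforehand. A match is a description of letters in the window and shows no binding, and ACGTG stood both in Hk2, lowest at 12 months, and in Pgk1 and Ldha, highest at 12 months.

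Mgarp and Ankrd37 rose at 12 months against 2 months, and Mgarp fell again at 24 months against 12 months. These are 2 of 36 genes (5.56%) at 12 against 2 months, where 0.262% of the 14501 genes tested were called higher, and 1 of 36 (2.78%) at 24 against 12 months, where 0.303% were called lower (limma, Benjamini-Hochberg adjusted p under 0.05 over all genes). None of the 36 was called at 24 against 2 months (limma, 0.159% of all genes in either direction). There, at an unadjusted p under 0.05, 1 gene was higher (Eno2, 7.9% of all genes) and 5 were lower (Slc2a1, Hk2, Aldoc, Car9 and Car12, 6.6% of all genes). In the F test of any difference among the ages, Mgarp alone of the 36 was called (adjusted p = 0.0128, 0.759% of all genes), and 23 had an unadjusted p under 0.05 (63.9%, against 18.1% of all genes).

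No other gene of the 36 passed the adjusted test. At an unadjusted p under 0.05, 15 were higher (41.7%, against 5.99% of all genes) and Hk2 was lower (9.65% of all genes) at 12 against 2 months, and 22 were lower (61.1%, against 5.05%) and none higher (9.09% of all genes) at 24 against 12 months. For 16 of the 36 genes (44.4%) all 3 libraries of 12 months stood above all 6 libraries of 2 and 24 months, which was so for 3.06% of all genes tested. These were Aldoa, Tpi1, Gapdh, Pgk1, Pgam1, Eno1, Pkm and Ldha of glycolysis, and Bnip3, Bnip3l, Ankrd37, Car9, Ndrg1, Higd1a, Mgarp and Fam162a of the other HIF-induced genes. Hk2 was the only one of the 36 with all 3 libraries of 12 months below the other 6 (4.44% of all genes). At 12 against 2 months the groups did not overlap for 17 genes that were higher (47.2%, against 9.58% of all genes) and for 2 that were lower (Hk2 and Pfkl, 15.4% of all genes). At 24 against 12 months they did not overlap for 18 genes that were lower (50%, against 6.14%) and for 2 that were higher (Hk2 and Pfkfb4, 11.1% of all genes). At 24 against 2 months no gene was higher without overlap (11.2% of all genes), and Hk2, Aldoc, Car9 and Mxi1 were lower (8.97% of all genes). The median log2 fold change of the 36 genes was 0.40 at 12 against 2 months, -0.63 at 24 against 12 months and -0.16 at 24 against 2 months, beside -0.07, 0.07 and -0.02 over all genes tested. The comparisons of 12 with 2 and of 24 with 12 months share the libraries of 12 months, so a high value there raises the one and lowers the other. RNA was pooled from sorted cells, so fewer cells of a type and less RNA per cell cannot be told apart.

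**Figure D1:**
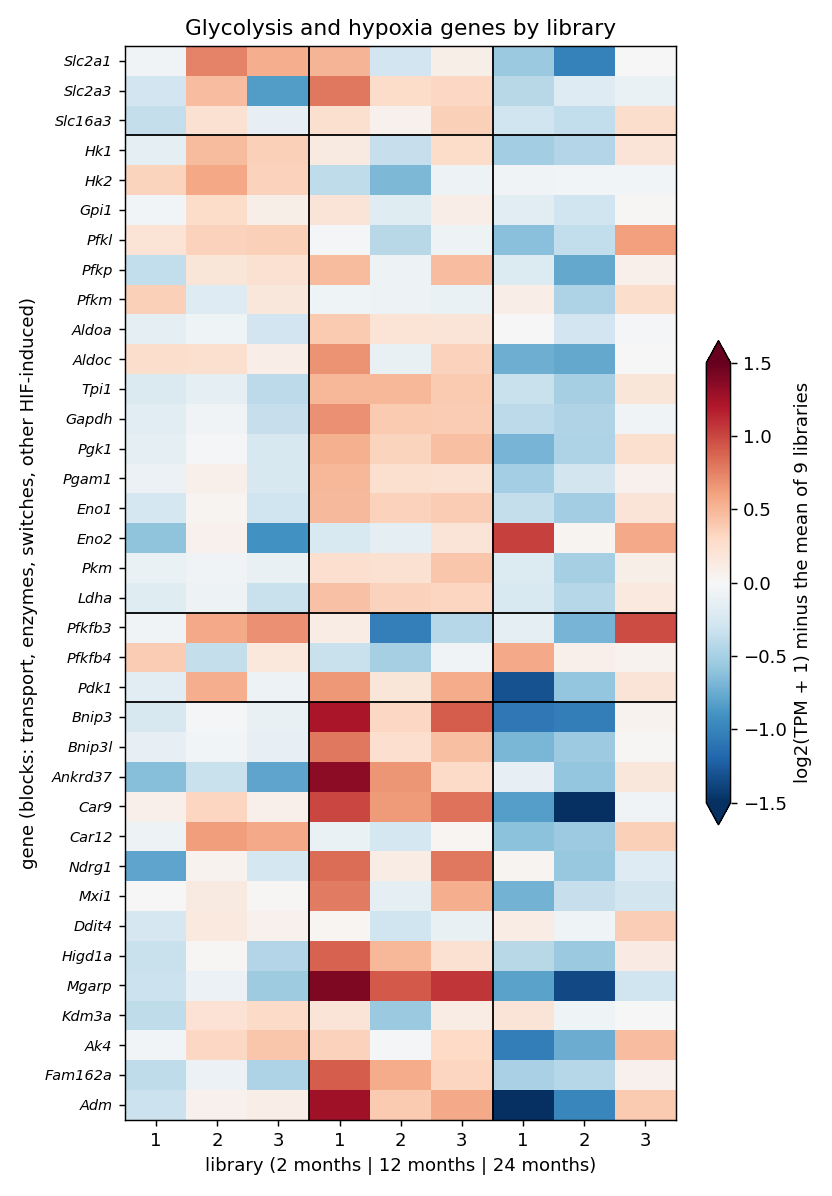
Heat map of the 36 genes (rows, in blocks of transport, enzymes, switches and other HIF-induced genes) in the 9 libraries (columns, 3 per age in the order 2, 12 and 24 months). Colour gives log2(TPM + 1) minus the gene's mean over the 9 libraries. The 3 columns of 12 months are red for the enzymes from Aldoa to Ldha other than Aldoc and Eno2, and for most of the other HIF-induced genes.

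Glucose enters the cell and lactate leaves it through the 3 transporters, none of which was called. Slc2a1 (GLUT1, chr4:119108711-119137983, GENCODE M21 on GRCm38), the main glucose importer here, had 297, 513 and 449.6 TPM at 2 months, 436, 252 and 327 TPM at 12 months and 209, 152 and 309 TPM at 24 months. The libraries of 24 months lay lower on average, but library 3 of 24 months was above library 1 of 2 months, so the ages overlapped. The log2 fold change at 24 against 2 months was -0.93 ± 0.28 (SE, adjusted p = 0.206), and without library 3 of 24 months it was -1.20 ± 0.27 (adjusted p = 0.041) and without library 2 of that age -0.69 ± 0.29 (adjusted p = 0.391). At 12 against 2 months it was -0.31 ± 0.28 (adjusted p = 0.636). Slc2a3 (GLUT3), an importer of high affinity, was scarce at 4.2 ± 2.35, 6.86 ± 1.64 and 3.83 ± 0.53 TPM at 2, 12 and 24 months (SD, n = 3), so that Slc2a1 made up between 97.5% and 99.5% of the sum of the pair in every library. Slc16a3 (MCT4), which exports lactate, averaged 181 ± 38.3, 222 ± 21.9 and 176 ± 45 TPM in the same order (SD, n = 3). Its log2 fold changes of 0.30 ± 0.20 at 12 against 2 months and -0.35 ± 0.20 at 24 against 12 months did not pass (adjusted p = 0.489 and 0.45).

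The enzymes from hexokinase to phosphofructokinase, which spend ATP to prime the sugar, stood lower at 12 than at 2 months for 5 of 6 genes (57.2% of all genes had a log2 fold change below 0), with a median log2 fold change of -0.20, and none was called. Of the 5, Hk1 (-0.21 ± 0.24), Gpi1 (-0.07 ± 0.15) and Pfkm (-0.20 ± 0.23) were within 1 SE of 0. Hk1, the widely expressed hexokinase that traps glucose as its phosphate, had 45.7, 69.8 and 64.3 TPM at 2 months, 55.2, 39.1 and 60.6 TPM at 12 months and 34.7, 36.6 and 57.6 TPM at 24 months, and its ages overlapped. Hk2 (chr6:82725025-82774454), the hexokinase known for its induction by HIF and insulin, had 32.4, 38.5 and 32.5 TPM at 2 months, 19.4, 15.6 and 24.1 TPM at 12 months and 24.4, 24.7 and 24.7 TPM at 24 months. All 3 libraries of 12 months were the lowest of the 9, and all 3 of 24 months lay below all 3 of 2 months. Its log2 fold change was -0.79 ± 0.19 at 12 against 2 months (adjusted p = 0.0796), 0.33 ± 0.19 at 24 against 12 months (adjusted p = 0.453) and -0.46 ± 0.19 at 24 against 2 months (adjusted p = 0.293). Gpi1, the isomerase that turns glucose phosphate into fructose phosphate, had 242, 302 and 263 TPM at 2 months, 285, 219 and 265 TPM at 12 months and 223, 202 and 251 TPM at 24 months, with overlap between all ages. Under median-of-ratios scaling its log2 fold change at 12 against 2 months turned positive, which left 4 of the 6 enzymes below 0.

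Phosphofructokinase, the committed step, is built from Pfkl, Pfkp and Pfkm subunits, the liver, platelet and muscle forms. Pfkp had 94.8, 139.8 and 144 TPM at 2 months, 172, 117 and 170.4 TPM at 12 months and 106, 72.1 and 129.7 TPM at 24 months, and the libraries of 12 and 2 months overlapped. Pfkl averaged 143 ± 8.04, 103 ± 14.9 and 113 ± 56.1 TPM at 2, 12 and 24 months (SD, n = 3). Its 3 libraries of 12 months lay below those of 2 months, whereas those of 24 months held both the lowest and the highest of the 9 values. The log2 fold change of Pfkl at 12 against 2 months was -0.48 ± 0.26 (adjusted p = 0.406). Pfkm was the least abundant at 18.6 ± 3.67, 15.9 ± 0.173 and 16.9 ± 4.42 TPM (SD, n = 3). Within the step, Pfkp supplied 43.5 ± 4.88, 56.1 ± 2.28 and 44.9 ± 7.52% of the summed TPM of the 3 genes at 2, 12 and 24 months (SD, n = 3), with 37.9% to 46.4% at 2 months, 53.5% to 57.7% at 12 months and 39.6% to 53.5% at 24 months. In the hexokinase step, Hk2 supplied 36.9 ± 4.15, 27.6 ± 1.42 and 37.2 ± 6.25% of Hk1 plus Hk2 (SD, n = 3), and each library of 12 months (26% to 28.5%) lay below the other 6 (30.0% to 41.5%).

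From aldolase onwards the pattern at 12 against 2 months was of the opposite sign. All 10 enzymes from aldolase to lactate dehydrogenase had positive log2 fold changes at 12 against 2 months (42.8% of all genes did), with a median of 0.50, and 9 of 10 were negative at 24 against 12 months (42.6% of all genes), with a median of -0.60. None was called in either comparison. At 12 against 2 months 8 of the 10 were higher without overlap (9.58% of all genes were). Aldoc (0.10 ± 0.25, within 1 SE of 0) and the scarce Eno2 (0.42 ± 0.35) overlapped. The signs of the 10 genes did not change under quantile or median-of-ratios scaling. The 6 enzymes from hexokinase to phosphofructokinase did not mirror this at 24 against 12 months. There 3 were positive and 3 negative, with a median of -0.07, and 5 of 6 were negative under quantile or median-of-ratios scaling. The sum of the 10 genes was 13503, 14956 and 12487 TPM at 2 months, 21617, 19364 and 19568 TPM at 12 months and 12383, 11186 and 16324 TPM at 24 months. The 6 earlier enzymes together amounted to 4.78 ± 0.573, 2.97 ± 0.386 and 3.95 ± 0.0929% of that sum at 2, 12 and 24 months (SD, n = 3), and each library of 12 months (2.54% to 3.30%) was below every library of the other ages (3.89% to 5.37%). The sum of the 6 itself overlapped between ages, at 571 to 711, 492 to 661 and 436 to 662 TPM. The low share at 12 months is therefore not separate from the high sum of the 10 genes. This split of the enzymes was not among the planned groups.

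Aldoa, the main aldolase, which splits the sugar into 2 trioses, had 1143, 1195 and 1023 TPM at 2 months, 1643, 1446 and 1430.2 TPM at 12 months and 1259, 1029 and 1232 TPM at 24 months. The libraries of 12 months were the highest 3, with a log2 fold change of 0.43 ± 0.15 over 2 months (adjusted p = 0.186). Aldoa has 2 records under this symbol in GENCODE M21 and a single row in the table. Aldoc, the aldolase best known from brain, had 38.1, 37.3 and 33.8 TPM at 2 months, 50.8, 29.1 and 40.2 TPM at 12 months and 18.5, 18.1 and 31.6 TPM at 24 months, and was at most 3.23% of the 2 aldolases. All 3 libraries of 24 months lay below those of 2 months, with a log2 fold change of -0.70 ± 0.25 (adjusted p = 0.253). Tpi1, which interconverts the trioses, had 948, 996 and 841 TPM at 2 months, 1567, 1566 and 1456 TPM at 12 months and 877, 784 and 1255 TPM at 24 months. The 12-month libraries were the highest 3, and the log2 fold change over 2 months was 0.72 ± 0.18 (adjusted p = 0.0867). Gapdh, which makes NADH and is often used as a reference gene, had 3247, 3522 and 2881 TPM at 2 months, 5856, 4784 and 4738 TPM at 12 months and 2788, 2679 and 3531 TPM at 24 months. Its log2 fold change was 0.67 ± 0.17 at 12 against 2 months (adjusted p = 0.0968) and -0.78 ± 0.17 at 24 against 12 months (adjusted p = 0.0768), with no overlap in either.

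Pgk1, which makes ATP, had 463, 498 and 432 TPM at 2 months, 738, 641 and 697 TPM at 12 months and 313, 368 and 603 TPM at 24 months. The 12-month libraries were the highest 3 of the 9, with library 3 of 24 months next. Pgam1, which moves the phosphate within phosphoglycerate, had 611, 689 and 553 TPM at 2 months, 918, 769 and 766 TPM at 12 months and 458, 538 and 681 TPM at 24 months, and the 12-month libraries were again the highest 3. A copy named Pgam1-ps2 was listed at 95.5 to 323 TPM, which was 20.9% to 38.8% of Pgam1, so reads shared between the pair make the level of Pgam1 uncertain. Eno1, the main enolase, had 3022, 3747 and 2946 TPM at 2 months, 5090.5, 4631 and 4721 TPM at 12 months and 2825, 2523 and 4137 TPM at 24 months. Its lowest 12-month library was above every library of the other ages. Eno2, the neuronal enolase, had 1.54, 3.05 and 1.06 TPM at 2 months, 2.3, 2.5 and 3.42 TPM at 12 months and 6.91, 3 and 4.73 TPM at 24 months, at most 0.244% of the 2 enolases. At 24 against 2 months its log2 fold change was 1.03 ± 0.35 (adjusted p = 0.241), with overlap. Log2 fold changes at 12 against 2 months were 0.58 ± 0.21 for Pgk1, 0.41 ± 0.17 for Pgam1 and 0.58 ± 0.20 for Eno1 (adjusted p = 0.208, 0.278 and 0.189).

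Pkm, pyruvate kinase, had 1672, 1730.4 and 1652 TPM at 2 months, 2131, 2096 and 2382 TPM at 12 months and 1559, 1265 and 1901 TPM at 24 months. Ldha, which reduces pyruvate to lactate, had 2357, 2539.5 and 2124 TPM at 2 months, 3622, 3399 and 3335 TPM at 12 months and 2279, 1978 and 2947 TPM at 24 months. For both genes the 12-month libraries were the highest 3. The log2 fold changes of Pkm and Ldha were 0.38 ± 0.17 and 0.56 ± 0.17 at 12 against 2 months (adjusted p = 0.291 and 0.146), and -0.50 ± 0.17 and -0.54 ± 0.17 at 24 against 12 months (adjusted p = 0.201 and 0.193). At 24 against 2 months they were -0.12 ± 0.17 and 0.02 ± 0.17, each within 1 SE of 0. Gapdh and Eno1 ranked 23 and 24 among the 14501 genes by mean TPM, Ldha 41 and Pkm 67, so these later enzymes are among the most abundant transcripts of the cells.

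**Figure D2:**
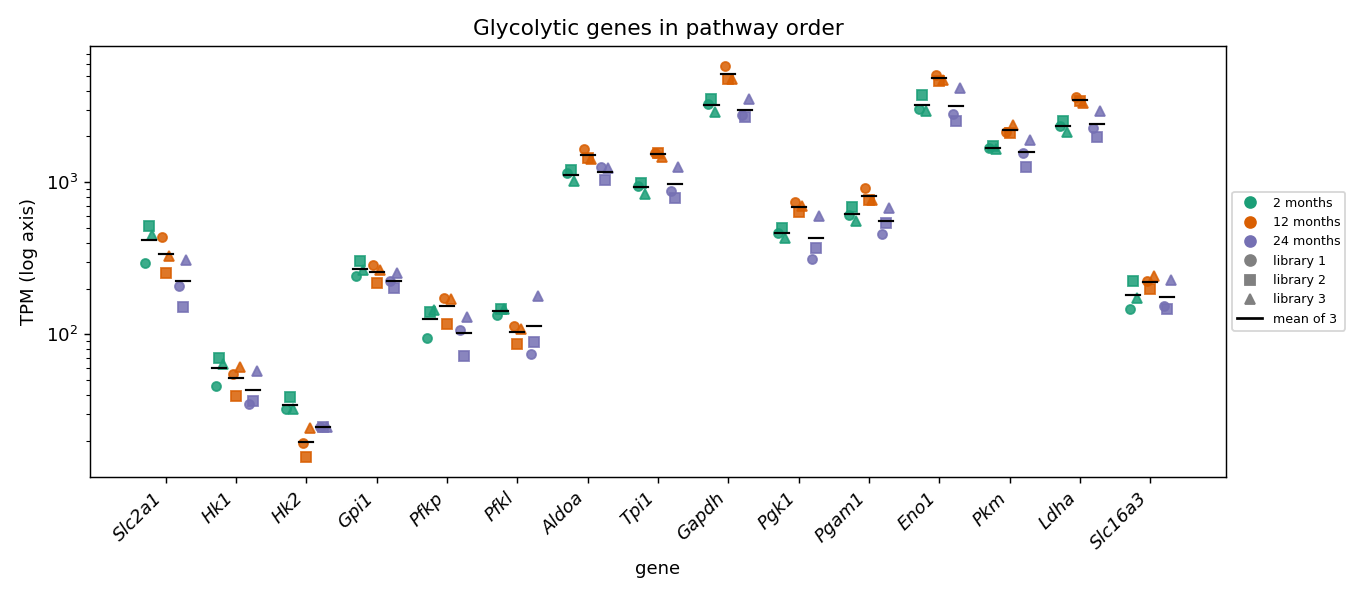
TPM on a log axis for the main gene or genes of each glycolytic step, from glucose import (left) to lactate export (right). Each symbol is a library, colour gives the age (2, 12 and 24 months from left to right within a gene) and the bar is the mean of 3. The 12-month symbols are the lowest for Hk2 and the highest for every gene from Aldoa to Ldha.

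Of the 3 switch genes, Pfkfb3, a bifunctional enzyme whose product activates phosphofructokinase, averaged 75.5 ± 19.3, 42.6 ± 16.6 and 65 ± 40.5 TPM at 2, 12 and 24 months (SD, n = 3), with library 3 of 24 months at 111 TPM and the other libraries of that age at 50.6 and 33.8 TPM. Pfkfb4, a relative of it, averaged 4.92 ± 1.46, 3.57 ± 0.732 and 5.64 ± 1.39 TPM (SD, n = 3). Pdk1, which holds pyruvate out of the citric acid cycle by inhibiting pyruvate dehydrogenase, averaged 58.8 ± 17, 74.4 ± 12.3 and 39.1 ± 20.3 TPM (SD, n = 3). None of the 3 switch genes was called, and the smallest adjusted p was 0.192, for Pdk1 at 24 against 12 months (log2 fold change -1.02 ± 0.32). Without library 3 of 24 months, Pdk1 was called there at -1.40 ± 0.27 (adjusted p = 0.0256), whereas on removal of 24-month library 1 it stood at -0.65 ± 0.27 (adjusted p = 0.366).

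Among the 14 other HIF-induced genes, Mgarp and Ankrd37 gave the only calls. Mgarp (chr3:51388412-51396738), a mitochondrial protein that takes part in moving mitochondria along the cytoskeleton, rose at 12 months and fell at 24 months. It had 31.7, 37.6 and 27.3 TPM at 2 months, 107, 76.4 and 85.1 TPM at 12 months and 22.5, 15 and 32.4 TPM at 24 months. Its 12-month libraries all exceeded 37.6 TPM, the highest value at 2 months, and no library of 12 months overlapped another age. The log2 fold change was 1.44 ± 0.25 at 12 against 2 months (adjusted p = 0.0276), -1.95 ± 0.25 at 24 against 12 months (adjusted p = 0.0164) and -0.50 ± 0.25 at 24 against 2 months (adjusted p = 0.379). Ankrd37 (chr8:45996902-46005707), an ankyrin repeat protein known as a HIF target, rose at 12 months, with 22, 27.3 and 19.7 TPM at 2 months, 90, 55.7 and 42.7 TPM at 12 months and 31.8, 22.9 and 39.4 TPM at 24 months. All 12-month libraries exceeded all others, although library 3 of 12 months and library 3 of 24 months were close. The log2 fold change was 1.35 ± 0.27 at 12 against 2 months (adjusted p = 0.0488), -0.94 ± 0.27 at 24 against 12 months (adjusted p = 0.165) and 0.41 ± 0.27 at 24 against 2 months (adjusted p = 0.507).

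Both calls at 12 against 2 months were lost, without a change of direction, in each of the 6 fits that left out a library of 2 or 12 months, where the adjusted p of Mgarp ran between 0.0601 and 0.145 and that of Ankrd37 between 0.0541 and 0.227. That of Ankrd37 was also lost without library 2 of 24 months (0.0503), and the F test called no gene of the 36 without library 3 of 12 months. The call of Mgarp at 24 against 12 months ended on removal of 12-month library 1 (0.0693), 12-month library 3 (0.0587) or 24-month library 2 (0.059). Ankrd37 overlaps the exons of Ufsp2, on the other strand, which was read at 86.8 to 130.2 TPM. The sources used here do not give strand, so reads in the overlap cannot be told apart, and Ufsp2 itself had 123, 128 and 130.1 TPM at 12 months, against 109, 123 and 116 TPM at 2 months.

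Bnip3 and Bnip3l (NIX) mark mitochondria for removal by autophagy. Bnip3 had 596, 686 and 648 TPM at 2 months, 1637, 868 and 1313 TPM at 12 months and 331, 342 and 729 TPM at 24 months, and Bnip3l had 323, 342 and 322 TPM at 2 months, 608, 418 and 481 TPM at 12 months and 218, 239 and 355 TPM at 24 months. For both, the 12-month libraries were the highest 3. The log2 fold changes of Bnip3 were 0.94 ± 0.29 at 12 against 2 months (adjusted p = 0.155) and -1.5 ± 0.29 at 24 against 12 months (adjusted p = 0.0548), and those of Bnip3l were 0.59 ± 0.19 and -0.90 ± 0.19 (adjusted p = 0.172 and 0.0684). Bnip3 shares exons with Gm45507 on the other strand, which had 21.7, 21.3 and 21.2 TPM at 2 months, 65.6, 33.1 and 42.9 TPM at 12 months and 17, 14.1 and 27.9 TPM at 24 months, so part of either value may belong to the other. Higd1a, which binds the respiratory chain and is induced by hypoxia, had 1147, 1467 and 1064 TPM at 2 months, 2667, 2043 and 1695 TPM at 12 months and 1083, 983 and 1582 TPM at 24 months. Fam162a, a mitochondrial protein linked to hypoxic cell death, had 742, 911 and 701 TPM at 2 months, 1816, 1426 and 1212 TPM at 12 months and 691, 717 and 1012 TPM at 24 months. The 12-month libraries of Higd1a and Fam162a were the highest 3, with log2 fold changes over 2 months of 0.79 ± 0.22 and 0.91 ± 0.20 (adjusted p = 0.118 and 0.065).

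The carbonic anhydrases Car9 and Car12 handle acid at the cell surface, and neither was called. Car9, the classic hypoxia marker, had 25.2, 30 and 25.2 TPM at 2 months, 48.6, 37.7 and 42.7 TPM at 12 months and 13, 5 and 23 TPM at 24 months. Its 12-month libraries were the highest 3 and its 24-month libraries the lowest 3, so that no ages overlapped. The log2 fold change was -1.79 ± 0.38 at 24 against 12 months (adjusted p = 0.0645) and -1.13 ± 0.38 at 24 against 2 months (adjusted p = 0.232), and without library 3 of 24 months these were -2.26 ± 0.31 and -1.60 ± 0.31 (adjusted p = 0.00673 and 0.0229). On removal of 24-month library 2 they were -1.26 ± 0.25 and -0.60 ± 0.25 (adjusted p = 0.111 and 0.391). Car12 had 90.3, 147 and 141 TPM at 2 months, 88.8, 79.2 and 97 TPM at 12 months and 61.7, 65.1 and 122 TPM at 24 months, and its ages overlapped. Its log2 fold change was -0.48 ± 0.26 at 12 against 2 months (adjusted p = 0.391) and -0.64 ± 0.26 at 24 against 2 months (adjusted p = 0.296).

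Adm, the vasodilator peptide adrenomedullin, averaged 104 ± 16.4, 188 ± 64.5 and 77.8 ± 56.2 TPM at 2, 12 and 24 months (SD, n = 3), with 37.5, 54.1 and 142 TPM in the libraries of 24 months. Its log2 fold change at 24 against 12 months was -1.44 ± 0.39 (adjusted p = 0.136), and library 3 of 24 months reached the level of library 2 of 12 months. Ndrg1, a stress-induced protein of vesicle traffic, had 35, 63.6 and 50.8 TPM at 2 months, 111, 66.1 and 107 TPM at 12 months and 63.1, 40.9 and 53.3 TPM at 24 months. Its log2 fold change at 12 against 2 months was 0.91 ± 0.26 (adjusted p = 0.12), and library 2 of 12 months was only just above library 2 of 2 months. Mxi1, which opposes MYC, averaged 13.1 ± 0.75, 17.5 ± 5.61 and 9.11 ± 1.56 TPM (SD, n = 3), and its libraries of 24 months were the lowest 3. Ddit4 (REDD1), which inhibits mTOR signalling, averaged 38.8 ± 5.67, 35.7 ± 4.03 and 43.4 ± 6.82 TPM, and Kdm3a, a histone demethylase, 15.6 ± 3.85, 14.3 ± 4 and 15.4 ± 1.5 TPM (SD, n = 3), and the ages overlapped for both. Ak4, a mitochondrial adenylate kinase, averaged 31.7 ± 5.22, 31.3 ± 4.32 and 21.8 ± 13.5 TPM (SD, n = 3), with library 3 of 24 months the highest of the 9 and libraries 1 and 2 of that age the lowest. None of these 6 genes was called in any comparison.

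**Figure D3:**
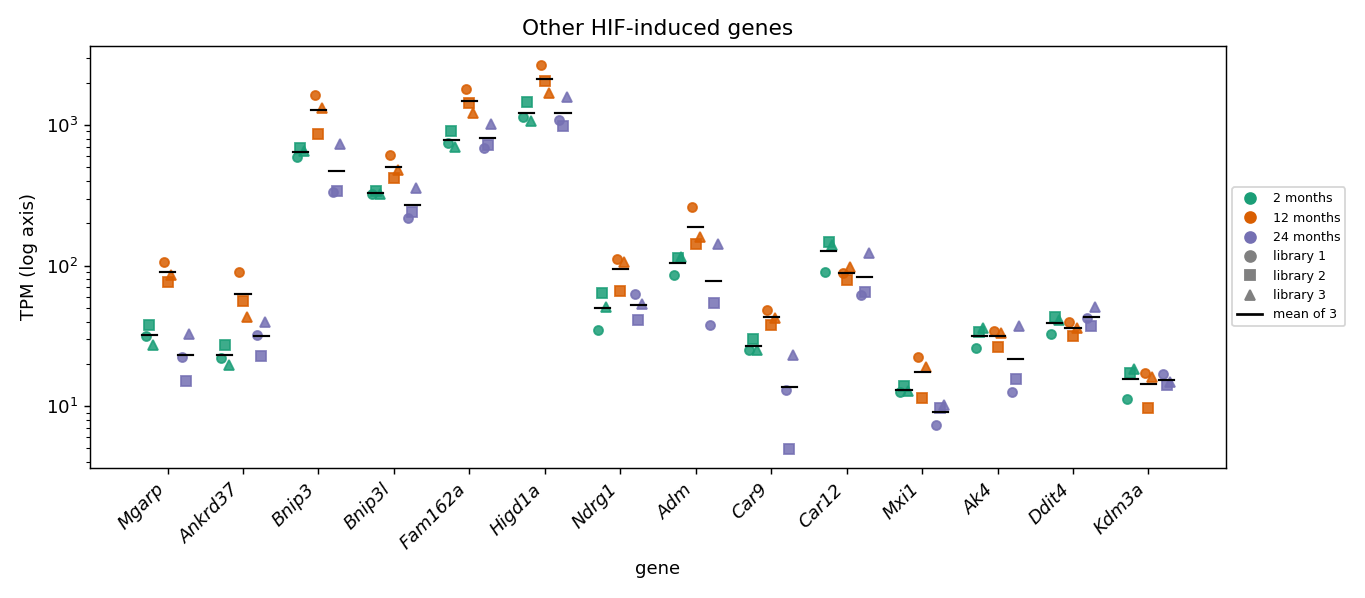
TPM on a log axis for the 14 other HIF-induced genes. Each symbol is a library, colour gives the age (2, 12 and 24 months from left to right within a gene) and the bar is the mean of 3. Mgarp, Ankrd37, Bnip3, Bnip3l, Fam162a, Higd1a, Ndrg1 and Car9 have their 12-month symbols above all others, and Ddit4 and Kdm3a overlap across ages.

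At 24 against 2 months 26 of the 36 genes (72.2%) had a negative log2 fold change, against 52.1% of all genes, and 10 a positive one, and none passed the test. Negative against positive, the split was 29 to 7 under quantile scaling and 28 to 5 when mitochondrial genes and the 50 most abundant genes were removed before rescaling. The latter fit held 33 of the 36 genes, without Gapdh, Eno1 and Ldha. The split rested in part on single libraries: it was 20 to 16 on removal of 24-month library 2 (55.6% negative, against 52.5% of all genes in that fit), 23 to 13 on removal of 24-month library 1 or 2-month library 2, and 29 to 7 on removal of 24-month library 3, 2-month library 1 or 2-month library 3. By role, the median log2 fold change at 24 against 2 months was -0.05 for transport, -0.15 for the 16 enzymes, -0.35 for the switches and -0.40 for the other HIF-induced genes. On removal of 1 library at a time these ran from -0.32 to 0.11 for transport, positive without 2-month library 2 or 24-month library 1, from -0.30 to -0.055 for the enzymes and from -0.55 to -0.20 for the other HIF-induced genes. The median of the switches ran from -0.82 without 24-month library 3 to 0.023 without 24-month library 2. At 12 against 2 months these medians were 0.30, 0.40, -0.35 and 0.72, and at 24 against 12 months -0.62, -0.52, 0.50 and -0.86. Library 3 of 24 months bore on how many genes were called. It held the highest value of its age for 31 of the 36 genes, so its removal lowers their 24-month means beforehand. The fit without it keeps library 1 of 24 months, the least correlated. In that fit 7 of 36 genes were called lower at 24 against 2 months (Slc2a1, Pfkl, Aldoc, Car9, Car12, Ak4 and Adm), where 1.5% of all genes were. There 5 were called higher at 12 against 2 months (Tpi1, Bnip3, Ankrd37, Mgarp and Fam162a, 0.497% of all genes). At 24 against 12 months 16 were called lower (1.34% of all genes). Calls over all genes at 24 against 2 months went from 23 to 430, so the lower calls are no separate support for a fall. Removal of 24-month library 1 or 24-month library 2 in place of library 3 left no gene of the 36 called at 24 against 2 months. The 7 genes were led in size by Car9 at -1.60 ± 0.31, Slc2a1 at -1.20 ± 0.27, Adm at -1.18 ± 0.26 and Ak4 at -1.12 ± 0.22.

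**Figure D4:**
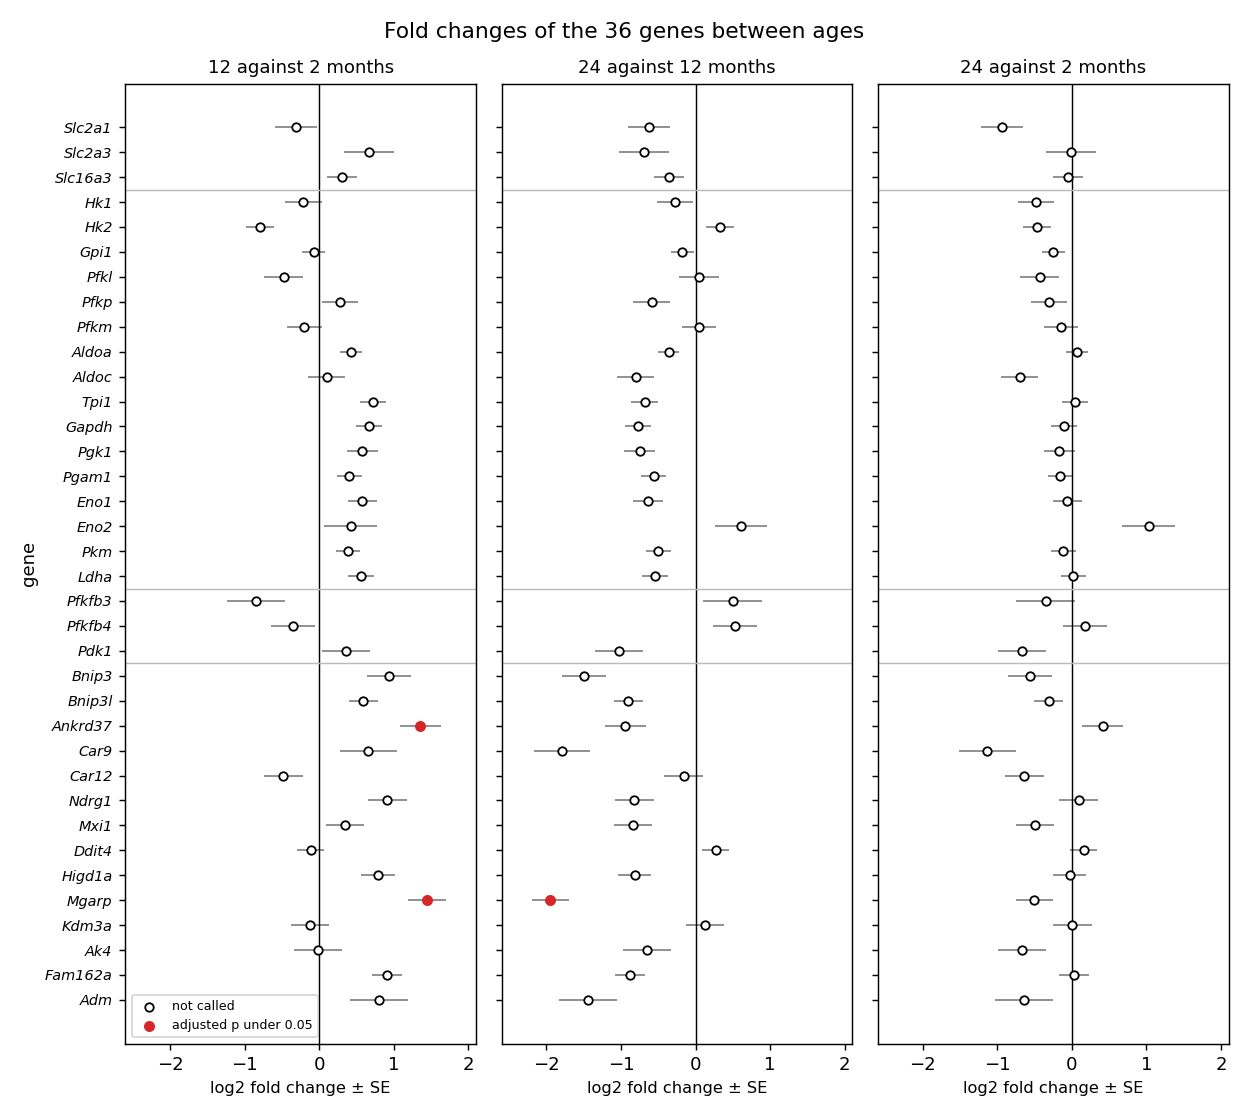
Log2 fold change ± SE (limma) of each of the 36 genes at 12 against 2 months (left), 24 against 12 months (middle) and 24 against 2 months (right). Red marks an adjusted p under 0.05 over all genes tested, which is Mgarp and Ankrd37 on the left and Mgarp in the middle.

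Summed over all 36 genes, the share of each library's TPM was 1.78, 2.05 and 1.72% at 2 months, 3.06, 2.57 and 2.63% at 12 months and 1.59, 1.46 and 2.19% at 24 months, so the 3 libraries of 12 months were the highest 3. Markers of other states moved across the same libraries. The 10 skeletal and cartilage markers, all kept, summed to 52139.8 to 59103 TPM at 2 months, 26267 to 36056 TPM at 12 months and 23020.3 to 40806 TPM at 24 months. Within 24 months, library 3 had 40806 TPM of them, against 23876 and 23020.3 TPM in libraries 1 and 2. Most of each sum was Col2a1, which averaged 39494, 22030 and 18860 TPM at 2, 12 and 24 months. By gene, all 10 had a negative log2 fold change at 12 against 2 months (57.2% of all genes did). At 24 against 2 months 9 did (52.1% of all genes), and Prrx1, at 16.4, 16 and 19.1 TPM, did not. The 10 smooth muscle and pericyte markers, all kept, summed to 214 to 379 TPM at 2 months, 178 to 684 TPM at 12 months and 724 to 1671 TPM at 24 months, with 1179.5, 1671 and 724 TPM in libraries 1, 2 and 3 of 24 months. The 12 proliferation genes summed to 202 to 336 TPM at 2 months, 242 to 454 TPM at 12 months and 463 to 504 TPM at 24 months. The 12 immediate early and dissociation genes, which respond to handling of cells, summed to 12549.6 to 15657 TPM at 2 months, 7499 to 9449 TPM at 12 months and 9468 to 11957 TPM at 24 months, and 6 of the 12 were called lower at 12 against 2 months, where 0.462% of all genes were called lower. Leaving out 1 library gave 3 to 8 such calls, with 3 on removal of 2-month library 3 and 8 on removal of 24-month library 1 or 24-month library 3. At 24 against 12 months 3 of these 12 genes were called higher (0.152% of all genes were).

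Markers of blood, vessel and muscle cells were low or uneven. Of the 9 erythroid markers in the table, 5 were kept, and the 9 summed to 151 to 339 TPM at 2 months, 222 to 928 TPM at 12 months and 74.1 to 966 TPM at 24 months, nearly all of it hemoglobin. Klf1 and Slc4a1 were each at 0 in 4 libraries. Of the 10 macrophage markers 4 were kept, with sums of 38.4 to 63.2 TPM at 2 months, 34.7 to 61 TPM at 12 months and 41.9 to 75.1 TPM at 24 months, and Ptprc, Adgre1 and Fcgr1 were at 0 in 6, 6 and 8 of the 9 libraries. The 4 kept genes differed in direction, and none was called. Cd14 averaged 41.7, 23.2 and 33.2 TPM at 2, 12 and 24 months, and Cd68 1.56, 1.87 and 1.65 TPM. Lyz2 averaged 9.48, 19.1 and 18.4 TPM and Ctss 0.084, 2.41 and 1.74 TPM, both higher at the later ages. Neutrophil markers (4 of 10 kept) summed to 21.5 to 48.2 TPM at 2 months, 53.3 to 101 TPM at 12 months and 21.2 to 244 TPM at 24 months, and Ly6g and Elane were at 0 in 7 libraries. Endothelial markers (5 of 8 kept) summed to 14.5 to 24.4 TPM at 2 months, 12.6 to 28.9 TPM at 12 months and 16.1 to 24.6 TPM at 24 months, and Tek was at 0 in 3. The skeletal muscle markers (5 of 10 kept) summed to 32.4 to 35.9 TPM at 2 months, 39.8 to 43.7 TPM at 12 months and 61.2 to 91 TPM at 24 months, and Myh2 was at 0 in all 9. The part of these cells and states in the differences between ages was not tested.

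**Figure D5:**
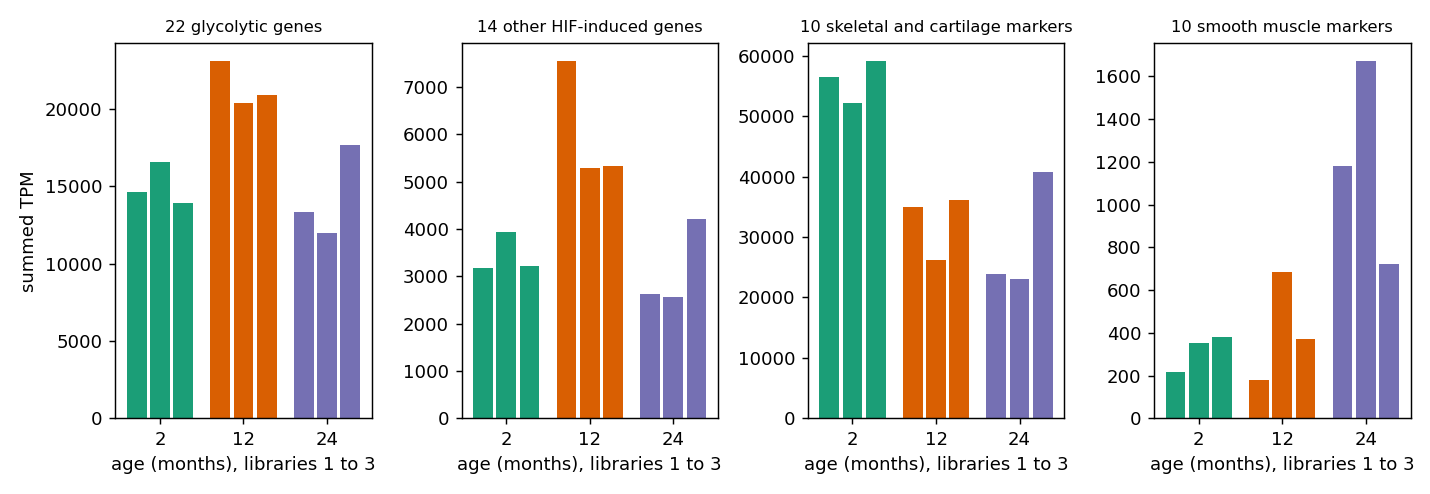
Summed TPM in each of the 9 libraries (bars, libraries 1 to 3 at 2, 12 and 24 months) of the 22 glycolytic genes, the 14 other HIF-induced genes, the 10 skeletal and cartilage markers and the 10 smooth muscle and pericyte markers. Each panel has its own axis from 0. The 12-month bars are the highest in the first pair of panels, cartilage markers (mostly Col2a1) are the highest at 2 months, and smooth muscle markers are the highest at 24 months.

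Of 37 further HIF target genes, 35 were kept. At 24 against 2 months 32 of the 35 had a negative log2 fold change (52.1% of all genes did), with a median of -0.46, and 1 was called lower (0.069% of all genes were). That gene was Egln1 (PHD2), the oxygen-sensing hydroxylase that marks HIF alpha for destruction and is itself a HIF target. Egln1 had 69.3, 73.9 and 58.6 TPM at 2 months, 167, 104 and 115 TPM at 12 months and 24.5, 27.3 and 24.4 TPM at 24 months. It fell at 24 against 2 months with a log2 fold change of -1.37 ± 0.19 (adjusted p = 0.0307) and at 24 against 12 months with -2.27 ± 0.19 (adjusted p = 0.000751), and at 12 against 2 months stood at 0.90 ± 0.19 (adjusted p = 0.0535). At 12 against 2 months 19 of the 35 were positive (42.8% of all genes were), with a median of 0.07, and 1 was called lower (0.462% of all genes were). This was Bhlhe40, a clock-linked repressor, at -0.96 ± 0.15 (adjusted p = 0.017). At 24 against 12 months 27 of the 35 were negative (42.6% of all genes were) and 3 were called lower (0.303% of all genes were). Egln1, Cox4i2, a respiratory subunit of hypoxic cells, and Gys1, glycogen synthase, fell, with Cox4i2 at -1.07 ± 0.17 and Gys1 at -1.54 ± 0.29 (adjusted p = 0.0267 and 0.045). In fits that left out 1 library, Egln1 at 24 against 12 months was called in all 9 (adjusted p of 0.00123 to 0.00702). Its call at 24 against 2 months ended in 6 of 9, when a 2-month library, 12-month library 3, 24-month library 1 or 24-month library 2 was removed (up to 0.134). That of Bhlhe40 ended in 5 of 9, on removal of a 2-month library, 12-month library 2 or 12-month library 3 (up to 0.0976). That of Cox4i2 ended in 4 of 9, on removal of library 1 or 3 at 12 months and 1 or 2 at 24 months (up to 0.124), and that of Gys1 in 7 of 9, the exceptions being 12-month library 2 and 24-month library 3 (up to 0.219). Vegfa, the vessel growth factor, had 341, 483 and 624 TPM at 2 months, 441, 293 and 388 TPM at 12 months and 195, 190.4 and 393 TPM at 24 months, and was not called. Its ages overlapped. Of the 10 oxygen sensors and HIF subunits, 8 were kept, and Egln1 was the only one called. Hif1a, the gene of the main alpha subunit, had a log2 fold change of -0.10 ± 0.25 at 12 against 2 months and -0.31 ± 0.25 at 24 against 2 months (adjusted p = 0.879 and 0.594).

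The branches next to glycolysis gave no call at 12 against 2 months, where 0.262% of all genes were called higher and 0.462% lower. At such shares, lists this short would mostly hold no call. Of 27 other glycolytic isozymes and transporters, 18 were kept and none was called, with a median log2 fold change of -0.06 at 12 against 2 months. Ldhb, the lactate dehydrogenase form of oxidative tissue, had 160.2, 156 and 139.96 TPM at 2 months, 126, 168 and 137 TPM at 12 months and 74.3, 73.3 and 109 TPM at 24 months. Its libraries of 24 months were the lowest 3, with a log2 fold change of -0.85 ± 0.18 at 24 against 2 months (adjusted p = 0.12). Pgam2, the muscle form of the mutase, had 1.77, 2.09 and 1.91 TPM at 2 months, 1.61, 6.84 and 8.28 TPM at 12 months and 12.7, 16.8 and 8.43 TPM at 24 months, and its log2 fold change at 24 against 2 months was 2.18 ± 0.43 (adjusted p = 0.102), beside skeletal muscle markers whose 3 highest sums were those of 24 months. Of the genes that pass pyruvate into mitochondria, 12 of 13 were kept and none was called, with a median of 0.00 at 12 against 2 months. Pdk4, a kinase that inhibits pyruvate dehydrogenase, stood at 1.16 ± 0.27 (adjusted p = 0.0791) and Mpc1, a subunit of the mitochondrial pyruvate carrier, at 0.48 ± 0.13 (adjusted p = 0.103) there. The pentose phosphate pathway (7 of 8 kept) had a median of 0.01 and no call. Medians at 12 against 2 months were higher for the 11 glycogen genes (0.34) and the 5 gluconeogenesis genes kept (0.32), beside 0.40 for the 16 glycolytic enzymes. Of these, 6 of 11 and 3 of 5 were positive (42.8% of all genes were), and Pck2 stood at 0.94 ± 0.19 (adjusted p = 0.0534). Of 11 glycogen genes, Gys1 was the only one called (0.303% of all genes were called lower at 24 against 12 months), and of 5 gluconeogenesis genes kept, Pck2, the mitochondrial carboxykinase, fell at 24 against 12 months (-1.45 ± 0.19, adjusted p = 0.0199). Pck2 had 56.2, 52.1 and 47.6 TPM at 2 months, 116, 88 and 100.05 TPM at 12 months and 27.7, 37 and 46.2 TPM at 24 months, and the 12-month libraries were the highest 3. Removing 12-month library 1, 12-month library 3 or 24-month library 2 ended its call (adjusted p of 0.0655 to 0.0926).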

How the data were processed

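RNA of 9 samples was sequenced as paired reads of 76 bases after cDNA synthesis from very few cells, with mapped reads averaging about 45 x 1e+06 per sample, per the labels' protocols. Per the submitters' processing notes, the authors' tools were Salmon with the build GRCm38.p6, and no source used here gives the Salmon version, annotation or strand setting. The deposited values are log2(TPM + 1): without the log and the offset of 1, each column summed to 1e+06. TPM keeps no depth, so the depth of single libraries is unknown and no counting interval was used. Salmon divides reads among similar transcripts, so near-identical copies are uncertain.

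Values were used as deposited. A gene was tested if 3 or more of the 9 libraries held 1 TPM or more (14501 genes). One model of the 3 ages was fitted with limma 3.58.1 in R 4.3.3 (intensity trend, 6 residual degrees of freedom, two-sided), with Benjamini-Hochberg adjustment over all genes tested and a threshold of 0.05, and was tested on simulated data. On the simulated data, at 24 against 2 months, the model recovered 42% of genes changed by a log2 fold change of 1. It recovered 93% of those changed by 2, and 8 of 143 calls were false. Whether these rates hold for the 9 libraries was not tested. In those libraries the spread differed by age, with a median SD on the log2 scale of 0.239, 0.291 and 0.338 at 2, 12 and 24 months. SE is limma's moderated standard error. The log2(TPM + 1) scale understates the change of low genes. Alternatives changed the offset, filter, scaling, variance model, weights, threshold and libraries. Coordinates are from GENCODE M21 on GRCm38, and promoters from RefSeq on GRCm38.p6. Values by library are given for genes called in any test, for those at an unadjusted p under 0.05 in a comparison with 2 months, and for the most abundant gene of each glycolytic step. Of the other pathway lists, called genes were named, with up to 4 more by smallest unadjusted p. Calls in the lists of cell and state markers were counted but not named. Vegfa, Hif1a and the levels of the remaining genes were chosen after their values were seen. The genes and lists were chosen with earlier results of these data known.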

Additional observations from a re-analysis of the deposited data

How the results depend on the processing

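Over 21 alternatives, 20 of them planned and 9 leaving out 1 library, no direction reversed among the 44 pairs of gene and comparison at an unadjusted p under 0.05. These pairs were picked by p-value in the same libraries, and the changed threshold refits nothing. A reversal was therefore unlikely beforehand, and its absence says little. Counts of the 36 genes called moved more. At 12 against 2 months the 2 calls became 1 with an offset of 0.1 or with rescaling after removal of mitochondrial and the 50 most abundant genes, 0 with no filter, with no intensity trend or with library 1 of every age left out (chosen after seeing the data), 3 with a 5 TPM filter, 4 with only the ages compared in the fit, 6 at a threshold of 0.10 and 8 with array weights. At 24 against 12 months the 1 call became 0 with no filter, no trend, only the ages compared or library 1 of every age left out, 2 with a 5 TPM filter, 3 with median-of-ratios scaling, 6 at 0.10 and 12 with array weights. In the F test 1 became 0 with no filter, no trend or library 1 of every age left out, 3 with a 5 TPM filter, 8 at 0.10 and 13 with array weights. At 24 against 2 months 0 became 2 with array weights. Leaving out 1 library gave 0 to 7 calls at 24 against 2, 0 to 5 at 12 against 2, 0 to 16 at 24 against 12 months and 0 to 17 in the F test, each highest without library 3 of 24 months.

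Over all genes, the alternatives called 0 to 430 at 24 against 2 months (23 as reported), 8 to 405 at 12 against 2 (105), 0 to 345 at 24 against 12 (66) and 0 to 687 in the F test (110). Median-of-ratios scaling called 58 of 125 higher at 12 against 2 months (38 of 105 as reported) and 18 of 92 at 24 against 12 (22 of 66), where quantile scaling called 20 of 90. The median of the 16 enzymes at 12 against 2 months, 0.40, was 0.28 with quantile scaling. With rescaling it was 0.25, but over fewer enzymes. That fit left out Gapdh, Eno1 and Ldha, at 0.67, 0.58 and 0.56 in the main fit, as they are among the 50 most abundant genes. The median of the other HIF-induced genes, 0.72, was 0.48 with library 1 of every age left out, and that of the switches at 24 against 12 months, 0.50, was 0.065 with array weights. Without 1 library, the switches ran from -0.82 to 0.023 at 24 against 2 months and from 0.031 to 0.61 at 24 against 12. Apart from the genes left out by rescaling, the cause of these shifts was not tested. Under scalings, signs of small differences changed for Gpi1 and Ak4 at 12 against 2 months, for Pfkl and Pfkm at 24 against 12, and for Aldoa, Tpi1, Fam162a and Kdm3a at 24 against 2.

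No paired analysis was possible because the columns of the deposited table carry no replicate number. With 3 libraries per age and an unknown depth per library, small differences between the ages could not be told from the spread, and a value missing the threshold does not show that the ages were alike.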
